A study of Mus musculus with 159 samples.

Results

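The genes described here were those measured at a higher level in the Else segments of mouse liver than in both the stellate cell and the MARCO+ macrophage segments. They were chosen by measured values: 68 of the 607 genes of the deposited table had a level in Else that exceeded both the level in Des+ and the level in Marco+IBA+ by at least 0.5 on the log2 scale, averaged over 4 livers. A level is the linear mean of the normalised values of all segments of that type in a liver, plus 1, on the log2 scale. The rule also left out 6 genes by name, of which Mt1 alone had passed (69 genes passed with it). The differences of Else from Des+ and from Marco+IBA+ are therefore the selection itself, and they are given below as a description with no test.

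The samples were 159 segments of fixed liver sections, read by digital spatial profiling, in which probes bound to RNA are cut off under light from chosen parts of a section and counted. Regions of interest (ROIs) had been picked by hand from the MARCO stain as MarcoHi or MarcoLo and divided by stain into Des+ (DESMIN, 41 segments), Marco+IBA+ (45), Marco-IBA+ (24) and Else, which lacked the 3 stains and was labelled Other (49), in 51 ROIs in all. Per the study's methods the 4 wild-type C57BL/6 mice, started at 8 weeks of age, had received carbon tetrachloride (CCl4) for 6 weeks, a pair with MARCO+ bone marrow-derived macrophages and a pair with saline. The study used males and females, and its methods do not give the sex of these 4 mice. The labels call livers 1 and 3 "treated CCl4" (fibrosis) and livers 2 and 4 "control" (healthy) and do not name the livers that received cells, so these names are used here as labels with no treatment attached. Each liver is 1 mouse, and segments of a liver are not independent, so the liver is the replicate throughout. What the Else segments hold beyond the missing stains could not be checked, because none of the 25 hepatocyte, 11 endothelial, 7 cholangiocyte or 6 lymphocyte markers looked for was in the table, which the authors had restricted to genes found mainly in stellate cells by single-cell sequencing. The genes are therefore called by their rule and not by a cell type.

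The liver parenchyma is built of hepatocytes, which make most plasma proteins, complement factors included, and push them through the endoplasmic reticulum (ER). There, a new protein is threaded through a channel, receives sugar chains, is folded by chaperones and disulfide isomerases, and leaves in coated vesicles, while retrieval receptors bring escaped chaperones back. When unfolded protein builds up, the transcription factors XBP1 and ATF6 raise the genes of this machinery. Hepatic stellate cells secrete matrix and use the same machinery, so genes of the ER are not markers of a cell type.

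The 68 genes took 39.1% ± 1.95 (SD, n = 4 livers) of the counts over the 607 genes in Else, with 38.2%, 40.5%, 36.8% and 41.0% in livers 1 to 4. Their share was 22.5% ± 2.52 in Des+, 22.0% ± 2.42 in Marco+IBA+ and 17.4% ± 1.21 in Marco-IBA+. Within ROIs the share was higher in Else than in Des+ in 41 of 41, than in Marco+IBA+ in 43 of 43 and than in Marco-IBA+ in 24 of 24, by a median of 18.0, 17.2 and 21.2 percentage points. The Des+ share of liver 4, 26.2%, stood above the 20.8%, 21.2% and 21.6% of the other livers, and without liver 4 the Des+ mean was 21.2% ± 0.375 (SD, n = 3). The 3 highest Des+ segments were MarcoHi segments of liver 4, at 34.4% (95% Wilson interval 33.5 to 35.4), 32.4% (30.8 to 34.0) and 31.2% (29.9 to 32.6), intervals that cover counting error only.

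**Figure D1:**
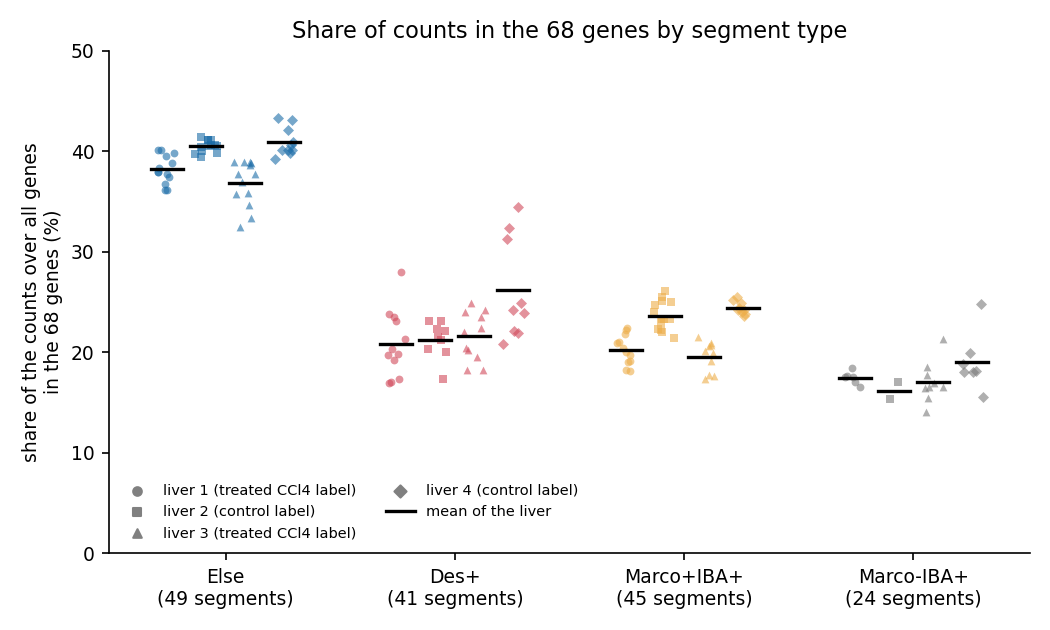
Share of the counts over 607 genes that fell in the 68 genes (percent, vertical axis) for each of 159 segments, by segment type and liver; points are segments and black lines are liver means. Else segments lay between 32.4% and 43.3%, and the highest segment of another type, a Des+ segment of liver 4, reached 34.4%.

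The depth of the segment types differed. An Else segment held a median of 209469 counts over the 607 genes (75571 to 448875), against 3675 in Des+, 8408 in Marco+IBA+ and 1639.5 in Marco-IBA+. The median share of genes at 1 count, the lowest value in the table, was 0% in Else, 14.3% in Des+, 3.29% in Marco+IBA+ and 47.4% in Marco-IBA+. A level in Des+ or Marco-IBA+ thus rests on few counts, and for genes near that lowest value the level is held up by it. The part of depth in the differences was not tested. The summed value of 17 stellate cell markers was 129 to 174 in Else over livers, 684 to 881 in Des+ and 247 to 306 in Marco+IBA+. Marco, the gene of the stained receptor, was at 8.93 to 27.2 in Else, 7.46 to 24.5 in Des+ and 179 to 1043 in Marco+IBA+.

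Over the 68 genes the level in Else exceeded that in Des+ by a median of 0.84 on the log2 scale (0.50 to 1.30), which is 1.42- to 2.47-fold, and that in Marco+IBA+ by a median of 0.74 (0.51 to 1.46), which is 1.43- to 2.75-fold. Over all 607 genes the medians were -0.08 and 0.04. Each of the 68 was above Des+ and above Marco+IBA+ in 4 of 4 livers. In the Marco-IBA+ segments, whose values the rule did not use, the level was lower than in Else by a median of 1.00 over the 68 genes and higher than in Else by a median of 0.38 over all 607. Liver 2 had 2 such segments, with a median of 63.8% of genes at 1 count. Else was above Marco-IBA+ on average in 67 of the 68, beside 200 of all 607 genes, and in 4 of 4 livers for 64 of the 68. The exception on average was Dad1, a subunit of the complex that adds sugar chains, at -0.08 ± 0.36 (SD, n = 4). No test is given for this, since the same Else values chose the genes. Just inside the limit were Rpn2 (0.72 over Des+, 0.51 over Marco+IBA+), Nfix (0.51, 0.59) and Tmem176a (0.50, 0.79), and just outside it were Emc7 (0.64, 0.49), Hook3 (0.69, 0.48) and Vcp (0.70, 0.47).

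**Figure D2:**
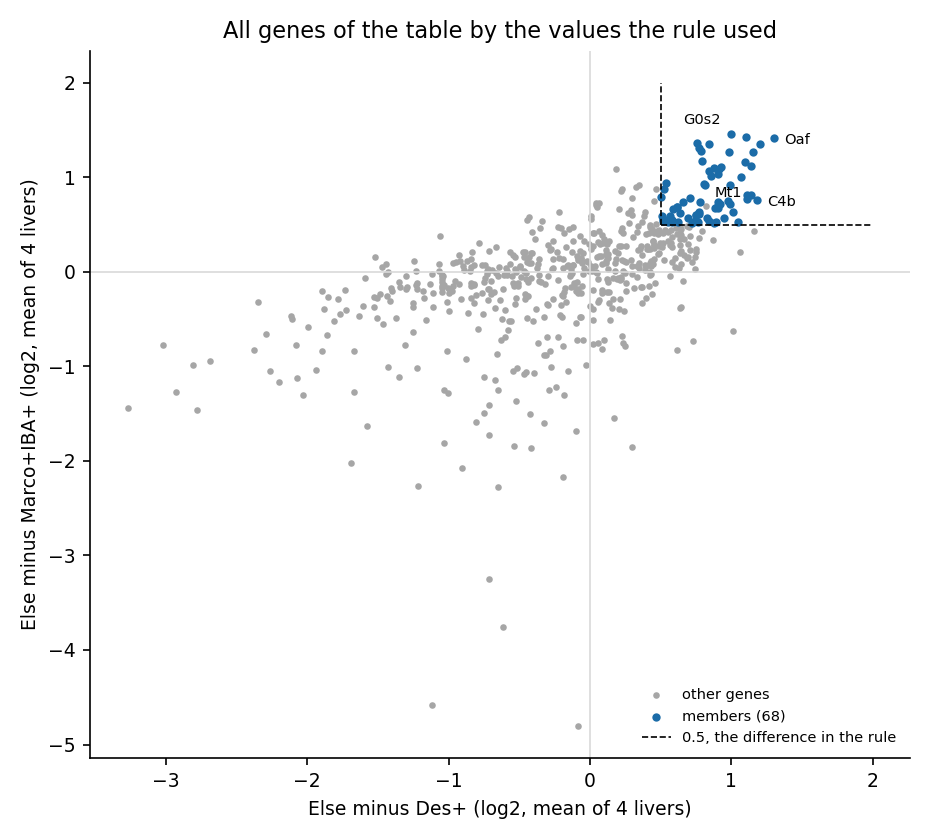
Difference of Else from Des+ (horizontal axis) and from Marco+IBA+ (vertical axis), both on the log2 scale and averaged over 4 livers, for each of 607 genes; blue points are the 68 members and dashed lines the difference of 0.5 in the rule. Few points lie far beyond the limit, the highest smaller difference being 1.30, and Mt1 is the grey point inside it.

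By what they are known to do, and grouped after their values were seen, the 68 genes fell into 9 of complement and other plasma proteins, 9 of folding in the ER, 11 of entry, glycosylation, transport and calcium of the ER, 5 enzymes of steroids, xenobiotics, sulfate and vitamin K, 10 regulators of transcription and RNA, 4 of lipid, glycogen and mitochondria, 12 of surface, endosome and lysosome and 8 others. The groups' median difference of Else from Des+ lay between 0.60 (the others) and 0.98 (the enzymes), and that from Marco+IBA+ between 0.60 (entry and transport) and 1.28 (plasma proteins).

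**Figure D3:**
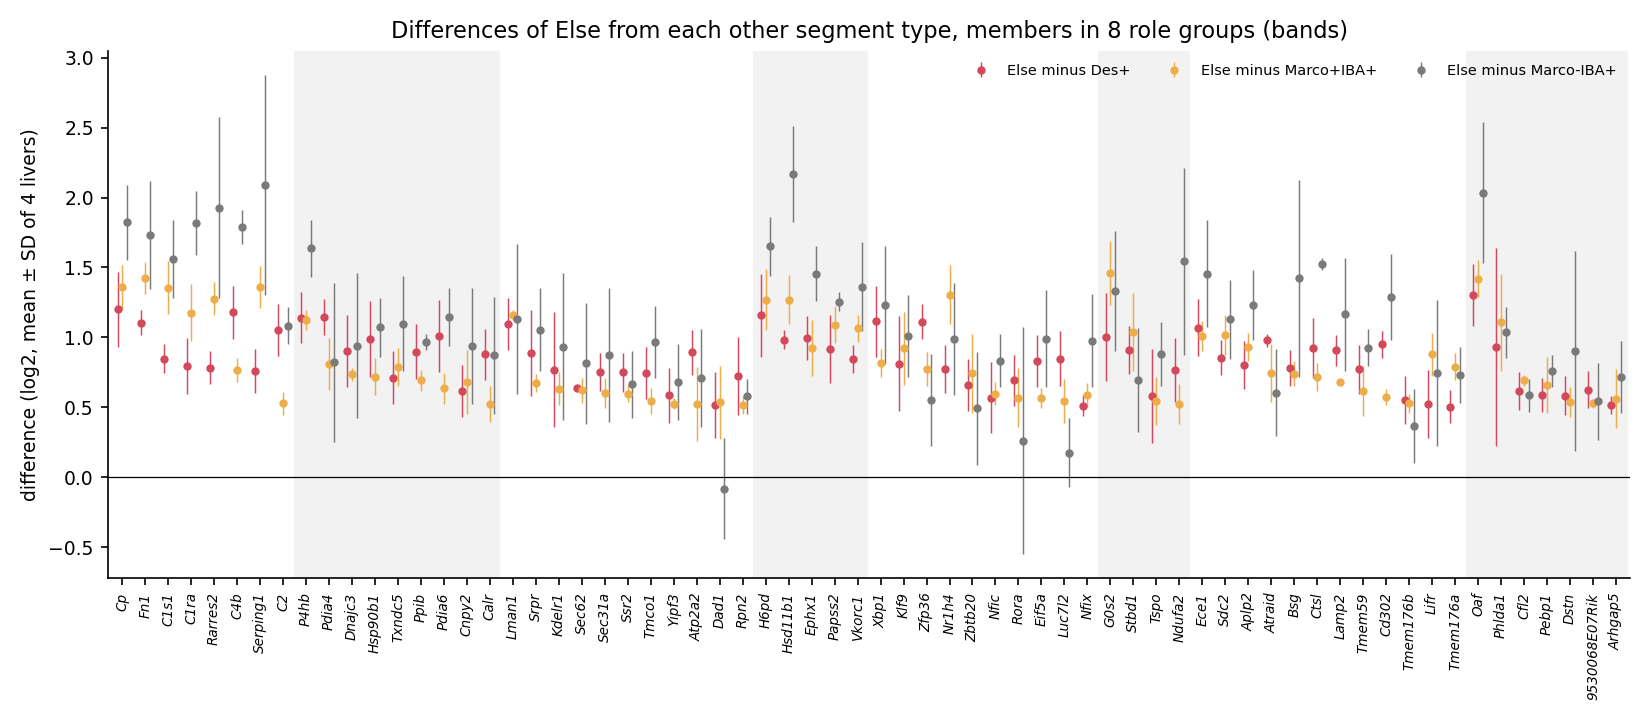
Difference of Else from Des+, Marco+IBA+ and Marco-IBA+ for 66 of the 68 genes (log2, mean ± SD over 4 livers), ordered in bands by the 8 role groups. Plasma protein genes on the left were 1.08 to 2.09 above Marco-IBA+, and Dad1 was the one gene whose mean difference from Marco-IBA+ was below 0.

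Among plasma proteins were genes of complement. C1ra and C1s1 encode the proteases that start the classical pathway and C2 and C4b the components they cleave. Serping1 encodes the inhibitor of those proteases. Levels of C4b were 8.16, 8.16, 7.87 and 8.40 in Else of livers 1 to 4, against 6.91, 6.75, 6.79 and 7.43 in Des+ and 7.41, 7.37, 7.01 and 7.75 in Marco+IBA+. C2 stood at 5.13, 5.07, 5.10 and 5.33 in Else, 3.95, 3.90, 4.02 and 4.56 in Des+ and 4.63, 4.62, 4.45 and 4.83 in Marco+IBA+. Both genes thus had their second level in the macrophage segments, with Des+ lower than Marco+IBA+ in 4 of 4 livers (by -0.41 ± 0.18 and -0.52 ± 0.21). Serping1, C1s1 and C1ra had it in Des+ in 4 of 4 livers, by 0.60 ± 0.26, 0.51 ± 0.22 and 0.38. Of the 12 complement and coagulation genes in the table by the fixed name pattern, 5 were members (C1s1 fell outside the pattern).

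Cp, which encodes the copper-carrying ferroxidase ceruloplasmin, had 7.46, 7.54, 7.43 and 7.36 in Else, 6.22, 6.08, 6.15 and 6.54 in Des+ and 6.03, 6.23, 5.90 and 6.19 in Marco+IBA+. Fn1, fibronectin, which hepatocytes secrete into plasma and stellate cells lay down as matrix, had 7.82, 8.03, 7.65 and 8.05 in Else, 6.67, 6.87, 6.51 and 7.09 in Des+ and 6.34, 6.74, 6.10 and 6.68 in Marco+IBA+. The ranges of Else did not meet those of the other types for either gene. Rarres2, the attractant chemerin, was 0.78 ± 0.12 above Des+ and 1.28 ± 0.12 above Marco+IBA+.

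Folding in the ER was represented by the disulfide isomerases P4hb, Pdia4, Pdia6 and Txndc5, the chaperones Hsp90b1 and Calr, the prolyl isomerase Ppib, the co-chaperone Dnajc3 and the ER protein Cnpy2. P4hb, also a subunit of collagen prolyl hydroxylase, had 7.82, 8.12, 7.90 and 8.12 in Else, 6.68, 6.75, 6.77 and 7.20 in Des+ and 6.60, 7.07, 6.77 and 7.03 in Marco+IBA+, which is 2.21- and 2.18-fold. The other 8 were 0.62 to 1.14 above Des+ and 0.52 to 0.81 above Marco+IBA+. Of the 9, 7 were lower in Des+ than in Marco+IBA+ on average, Pdia6 (-0.38), Calr (-0.36) and Pdia4 (-0.33) in 4 of 4 livers. Of 8 genes that the fixed pattern for heat shock proteins and chaperones found in the table, 3 were members (Dnajc3, Hsp90b1, Ppib), and Cryab, Dnajc8, Fkbp9, Hspa5 and Ppic were not.

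RefSeq promoter windows, 250 bases before to 50 after a start of transcription in build GRCm38.p6, were given for 53 of the 68 genes. The ER stress response element, read as CCAAT and CCACG with 9 bases between them on either strand, was found in 4 of the 53 (7.55%), all of the folding group, against 7 of 464 windows of genes in the table (1.51%) and 37 of 27025 genes in all (0.137%). This element was looked for after the members were known, so the shares are a description. The 250 bases before the start are shown for these 4, with each match in capitals, since they let the spacing be read: Hsp90b1 at chr10:86705445-86705694 (minus strand), Pdia6 at chr12:17266339-17266588 (plus strand), Dnajc3 at chr14:118937682-118937931 (plus strand) and Calr at chr8:84846932-84847181 (minus strand), each 5′ to 3′ along its gene.
Hsp90b1: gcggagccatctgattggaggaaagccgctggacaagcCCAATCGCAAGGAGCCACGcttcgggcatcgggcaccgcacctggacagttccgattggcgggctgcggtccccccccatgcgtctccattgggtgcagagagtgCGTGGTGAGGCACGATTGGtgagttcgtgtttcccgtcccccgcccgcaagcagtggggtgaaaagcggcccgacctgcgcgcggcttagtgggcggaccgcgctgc
Pdia6: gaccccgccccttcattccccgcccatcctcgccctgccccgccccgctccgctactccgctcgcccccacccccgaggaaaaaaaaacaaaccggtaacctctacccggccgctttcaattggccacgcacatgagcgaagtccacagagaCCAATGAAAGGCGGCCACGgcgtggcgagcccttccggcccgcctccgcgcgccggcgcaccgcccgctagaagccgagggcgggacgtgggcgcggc
Dnajc3: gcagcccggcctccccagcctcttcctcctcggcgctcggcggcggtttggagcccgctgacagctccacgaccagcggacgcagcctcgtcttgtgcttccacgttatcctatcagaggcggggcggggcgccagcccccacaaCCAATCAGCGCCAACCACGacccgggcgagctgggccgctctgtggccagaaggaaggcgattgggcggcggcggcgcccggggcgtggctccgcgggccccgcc
Calr: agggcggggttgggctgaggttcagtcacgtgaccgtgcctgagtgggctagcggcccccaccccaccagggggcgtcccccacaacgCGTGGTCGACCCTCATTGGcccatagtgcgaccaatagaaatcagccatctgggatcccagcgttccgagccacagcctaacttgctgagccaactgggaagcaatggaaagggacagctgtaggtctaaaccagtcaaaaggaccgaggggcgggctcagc
Hsp90b1 held a pair of matches, at 212 to 194 and, on the opposite strand, at 107 to 89 bases before the start. The match of Pdia6 lay 98 to 80, that of Dnajc3 105 to 87 and that of Calr, on the opposite strand, 162 to 144 bases before it. The plain CCAAT box, which the longer element contains, was in 60.4% of the 53 windows, 42.5% of those of the table and 41.1% of those of all genes. The GC box (GGGCGG) was in 62.3%, 70.0% and 38.2%, and the TATA box (TATAAA) in 9.43%, 11.6% and 15.7%. The HNF4 site used here was in 2 members, Cd302 and Ece1 (3.77%, against 0.862% and 0.555%). The HNF1 site used here was in 1 member, Cp (1.89%, against 0.647% and 0.94%). The C/EBP site was in 0 members (against 0.216% and 0.207%). The unfolded protein response element, also looked for after the members were known, was in 1, Txndc5 (1.89%, against 0.862% and 0.714%). A match is a run of letters and not a shown binding site.

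For entry, glycosylation and transport, Lman1, the cargo receptor that carries glycoproteins out of the ER, had 5.79, 6.09, 5.91 and 6.12 in Else, 4.87, 4.76, 4.94 and 4.96 in Des+ and 4.63, 4.92, 4.72 and 5.01 in Marco+IBA+. The remaining 10, among them the signal recognition receptor Srpr, the channel partners Sec62 and Ssr2, the glycosylation subunits Rpn2 and Dad1, the coat protein Sec31a, the retrieval receptor Kdelr1 and the calcium pump Atp2a2, were 0.52 to 0.89 above Des+ and 0.51 to 0.67 above Marco+IBA+.

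The enzymes stood out by a pair that works together. H6pd makes the NADPH inside the ER that Hsd11b1 uses to regenerate active glucocorticoid. H6pd had 6.69, 6.55, 6.47 and 6.61 in Else, 5.70, 5.03, 5.20 and 5.77 in Des+ and 5.23, 5.12, 5.27 and 5.62 in Marco+IBA+. Hsd11b1 (chr1:193221640-193264045 in GRCm38.p6) had 7.50, 7.69, 7.60 and 7.85 in Else, 6.46, 6.67, 6.62 and 6.96 in Des+ and 6.03, 6.59, 6.24 and 6.70 in Marco+IBA+, and its 2.17 ± 0.34 over Marco-IBA+ was the highest of the 68. Else lay above every other level of both genes. Ephx1, the microsomal epoxide hydrolase, had 7.30, 7.23, 7.50 and 6.95 in Else, 6.33, 6.10, 6.41 and 6.17 in Des+ and 6.29, 6.43, 6.33 and 6.22 in Marco+IBA+. Papss2, which makes the sulfate donor, had 6.09, 5.91, 6.18 and 6.31 in Else, 5.09, 4.74, 5.58 and 5.41 in Des+ and 4.87, 4.98, 5.01 and 5.27 in Marco+IBA+. Vkorc1, which recycles vitamin K, was 0.84 ± 0.10 and 1.06 ± 0.10 above them.

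Of the regulators, Xbp1, the factor of the unfolded protein response, was 1.12 ± 0.26 above Des+ and 0.82 ± 0.10 above Marco+IBA+, and Nr1h4, the bile acid receptor FXR, was 0.77 ± 0.17 and 1.31 ± 0.21 above them. Zfp36, which promotes the decay of inflammatory messages, had Des+ below Marco+IBA+ in 4 of 4 livers (-0.34), whereas Nr1h4 had it above in 4 of 4 (0.53). Luc7l2 and Rora were 0.18 ± 0.25 and 0.26 ± 0.81 above Marco-IBA+, less than their spread over livers.

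G0s2, the inhibitor of the lipase that breaks down stored fat, varied most between livers in Else among the 68, with 5.09, 4.53, 5.89 and 5.88 in Else, 4.38, 3.78, 4.60 and 4.62 in Des+ and 3.64, 3.37, 4.17 and 4.37 in Marco+IBA+. Its order of livers was alike in Else and Des+, liver 2 being the lowest and livers 3 and 4 the highest. Stbd1, which anchors glycogen to membranes, was 0.91 ± 0.17 above Des+ and 1.04 ± 0.28 above Marco+IBA+. Ece1, the endothelin-converting enzyme at the cell surface, had 5.45, 5.74, 5.42 and 5.58 in Else, 4.40, 4.49, 4.24 and 4.79 in Des+ and 4.58, 4.66, 4.42 and 4.49 in Marco+IBA+. The 11 others of surface, endosome and lysosome, with the protease Ctsl, the membrane protein Lamp2 and the cytokine receptor Lifr among them, were 0.50 to 0.98 above Des+ and 0.53 to 1.02 above Marco+IBA+.

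The highest smaller difference of the 68 was that of Oaf, a secreted protein of little known function. It had 6.30, 6.57, 6.40 and 6.60 in Else, 5.22, 4.99, 5.02 and 5.43 in Des+ and 4.77, 5.05, 5.01 and 5.35 in Marco+IBA+, which is 2.47- and 2.68-fold. Phlda1, induced by stress and growth factors, had 5.19, 5.64, 4.71 and 4.45 in Else, 4.52, 3.70, 3.89 and 4.15 in Des+ and 3.91, 4.14, 3.75 and 3.74 in Marco+IBA+. Its difference from Des+ ran with the liver (0.93 ± 0.71), since liver 2 was the highest in Else and the lowest in Des+. The other 6 of this group were 0.52 to 0.62 above Des+.

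Between the types that the rule set against Else, the 68 genes did not share a direction. In Des+ 32 were higher than in Marco+IBA+, 12 of them in 4 of 4 livers, and 36 lower, 14 of them in 4 of 4. The median difference of Des+ from Marco+IBA+ was -0.02 over the members, beside 0.10 over all genes of the table. The members thus lay lower in Des+, relative to Marco+IBA+, than the table as a whole. The plasma proteins were higher in Des+ in 7 of 9 and the enzymes in 4 of 5, and the genes of folding in 2 of 9 and of entry and transport in 2 of 11. This too is a description, since both levels entered the rule.

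The difference between ROI classes in Else, MarcoHi against MarcoLo, was not used by the rule and was tested with limma on the mean of each class in each liver, with the liver as a block and Benjamini-Hochberg adjustment over all 607 genes. In MarcoHi 2 members were higher and 0 lower. They were also the 2 genes called higher in the table (0.329%), where 10 genes were called in all (1.65%), 8 of them lower and not members. Hsd11b1 was at 7.71, 7.75, 7.75 and 7.91 in MarcoHi of livers 1 to 4 and at 7.29, 7.59, 7.40 and 7.68 in MarcoLo. Its difference of 0.29 (SE 0.05) had an adjusted p of 0.0329 in limma and was above 0 in 4 of 4 livers. Serping1 (chr2:84765360-84775444) was at 7.64, 7.58, 7.23 and 7.73 in MarcoHi and at 7.33, 7.42, 7.01 and 7.52 in MarcoLo, a difference of 0.23 (SE 0.04, limma adjusted p 0.0313), above 0 in 4 of 4 livers. Both calls depended on each of livers 1, 3 and 4. Without liver 1, 3 or 4 the adjusted p was 0.131, 0.124 or 0.057 for Hsd11b1 and 0.131, 0.124 or 0.061 for Serping1, with differences of 0.25 to 0.31 and 0.20 to 0.23. Over 14 alternatives the adjusted p ran from 4.55e-05 (Hsd11b1) and 0.00132 (Serping1) to 0.999 without the liver as a block, and was under 0.05 in 9 for each gene.

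Further members missed the threshold. The differences of C2 (0.20), Rarres2 (0.18), Calr (0.18), Xbp1 (0.17), Cp (0.15) and C4b (0.15) were above 0 in 4 of 4 livers, with adjusted p between 0.0527 and 0.0644. In all, 28 members had a difference above 0 in 4 of 4 livers, where 13.2% of the table did (80 genes), and 3 members below 0 in 4 of 4, where 13.3% did (81 genes). At an unadjusted p under 0.05 there were 20 members higher and 3 lower, 23 together, against 119 genes of the table (19.6%). By role, in groups formed after the values were seen, a mean difference above 0 was found in 9 of 9 plasma protein genes, 11 of 11 genes of entry and transport, 7 of 9 of ER folding, 8 of 10 regulators and 8 of 12 of surface and lysosome, and in 3 of 5 enzymes, 2 of 4 of lipid, glycogen and mitochondria and 5 of 8 others. Over the 68 the median was 0.04, with 53 above 0, and over all genes -0.01, with 282 of 607 above 0.

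At the low end stood Ephx1, at 7.06, 7.11, 7.39 and 6.95 in MarcoHi and 7.48, 7.39, 7.61 and 6.94 in MarcoLo. Its difference was -0.23 with a limma adjusted p of 0.116, below 0 in 3 livers and at 0 in liver 4. Lifr, the receptor of leukemia inhibitory factor, was at 6.03, 5.72, 5.62 and 5.66 against 6.26, 5.94, 5.73 and 5.69 (-0.15, adjusted p 0.116). Stbd1 was at 5.06, 4.82, 5.02 and 5.01 against 5.21, 4.88, 5.05 and 5.17 (-0.10, adjusted p 0.193). Lifr and Stbd1 were lower in MarcoHi in 4 of 4 livers without passing the test.

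**Figure D4:**
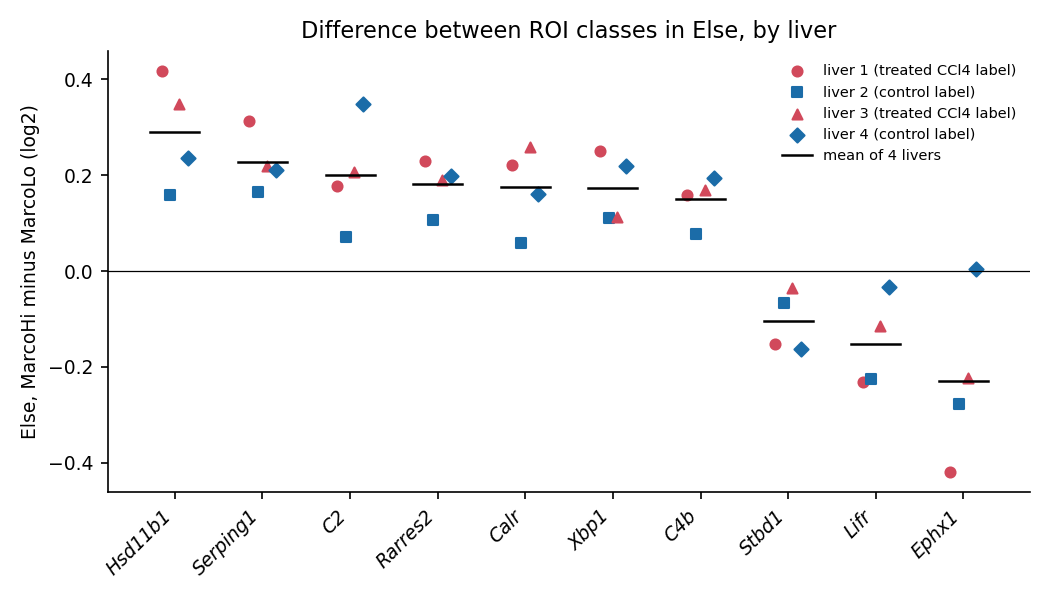
Difference between MarcoHi and MarcoLo in Else on the log2 scale (vertical axis) in each of 4 livers, for 7 members of higher and the 3 of lowest mean difference; black lines are means. Hsd11b1 and Serping1, the 2 that passed the test, had means of 0.29 and 0.23 with every liver above 0, and Ephx1 lay at 0 in liver 4.

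In Else the summed value of the 17 stellate cell markers was 126 to 155 over livers in MarcoHi and 134 to 196 in MarcoLo, and 4 of those markers (Col1a1, Col3a1, Dcn and Rgs5) were among the 8 genes called lower in MarcoHi. Since the values of a segment are set relative to each other, fewer stellate transcripts and more of the members cannot be told apart here, and in segments of many cells neither can cell number and RNA per cell. Counts had a median of 222973.5 in MarcoHi and 204150 in MarcoLo. The share of the 68 genes was higher in MarcoHi in 4 of 4 livers, at 39.2%, 40.7%, 37.6% and 41.3% against 37.4%, 40.2%, 36.0% and 40.1%. In Des+ the median difference of the members between MarcoHi and MarcoLo was 0.16 (52 of 68 above 0), beside 0.02 over all genes (322 of 607), and that of Hsd11b1 was 0.51, 0.47, 0.84 and 0.69 in livers 1 to 4. The stellate marker sum in Des+ was 528 to 799 in MarcoHi and 960 to 1145 in MarcoLo, without overlap, and counts had a median of 3089 and 4602.5. In Marco+IBA+ the median was -0.02 (29 of 68 above 0), the same to 2 decimals as over all genes (276 of 607), with 0.08, 0.03, 0.10 and 0.35 for Hsd11b1. There the stellate sum was 208 to 243 in MarcoHi and 262 to 376 in MarcoLo. The part of marker levels and counts in these differences was not tested.

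Whether the distance of Else from the other types varied with ROI class was tested as a difference of differences in limma. From Des+, 12 genes of the table were called (1.98%) and no member, with 1 member and 78 genes (12.9%) at an unadjusted p under 0.05. That member was Oaf, whose distance was smaller in MarcoHi by -0.45 (limma adjusted p 0.324). DESeq2 called 26 of the 607 genes. Of these, 3 were members (Oaf, P4hb and Eif5a), each with a smaller distance in MarcoHi. From Marco+IBA+, 0 genes were called (0%), with 2 members, Dad1 and C1s1, and 50 genes (8.24%) at an unadjusted p under 0.05; edgeR and DESeq2 each called 15 genes there and 0 members. The median over members was -0.13 from Des+ and 0.08 from Marco+IBA+, beside -0.01 and 0.02 over all genes.

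Between the labels, the level in Else was compared over livers 1 and 3 ("treated CCl4") against 2 and 4 ("control"), a design of 2 against 2. With limma 0 of 607 genes were called (0%) and no member, and 16 members and 159 genes (26.2%) had an unadjusted p under 0.05. Calr, the calcium-binding chaperone calreticulin, was the lowest, at 7.12 and 7.05 in the treated livers and 7.54 and 7.45 in the control livers, a difference of -0.41 (SE 0.08, limma adjusted p 0.161). Ppib was at 6.63 and 6.77 against 7.02 and 7.06 (-0.34), also with an adjusted p of 0.161. In both genes both treated livers lay below both control livers. That held for 37 of the 68 members, where 17.1% of the table did so (104 genes), and the opposite held for 3, where 50.4% did (306 genes).

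By role, both treated livers were below both control livers in 9 of 9 genes of ER folding (median difference -0.26) and 9 of 11 of entry and transport (-0.14), in 5 of 12 of surface and lysosome, 4 of 9 plasma protein genes, 4 of 10 regulators, 2 of 5 enzymes, 1 of 4 of lipid, glycogen and mitochondria and 3 of 8 others. Over the 68 the median was -0.11, with 16 above 0, and over all genes 0.11, with 428 of 607 above 0. With each segment re-centred on its own median the medians were -0.25 and -0.02, with 3 of the 68 above 0. DESeq2 called 33 members, each lower in the treated livers, where it called 76 genes of the table lower (12.5%), and edgeR's quasi-likelihood test called none. The stellate marker sum in Else was 167 and 174 in the treated livers and 129 and 143 in the control livers, and Marco was at 17.6 and 27.2 against 8.93 and 9.12. The part of these in the members' values was not tested.

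At the high end, Ephx1 was at 7.30 and 7.50 in the treated livers and 7.23 and 6.95 in the control livers (0.31, limma adjusted p 0.189). G0s2, at 5.09 and 5.89 against 4.53 and 5.88, and Lifr, at 6.16 and 5.67 against 5.81 and 5.67, overlapped between labels (0.29 and 0.18, adjusted p 0.678 and 0.475). The difference of G0s2 was -0.39 without liver 2 and -0.11 without liver 3, and that of Lifr -0.068 without liver 1.

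**Figure D5:**
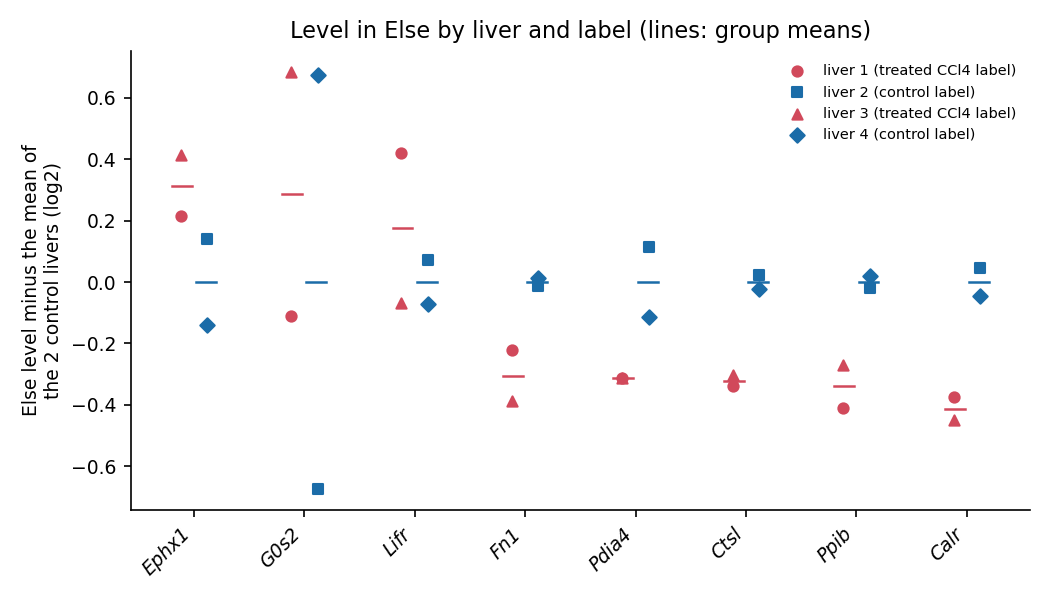
Level in Else of each liver on the log2 scale, set against the mean of the 2 control livers (vertical axis), for the 3 members of highest difference between labels and 5 of the lowest; short lines are group means. Calr, Ppib, Ctsl, Pdia4 and Fn1 had both treated livers below both control livers, while G0s2 and Lifr overlapped.

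The difference between ROI classes was not shown to depend on the label: limma's interaction called 0 genes (0%), with 1 member, Hsd11b1, and 34 genes (5.6%) at an unadjusted p under 0.05. Its class difference was 0.42 and 0.35 in the treated livers and 0.16 and 0.24 in the control livers (interaction 0.19, adjusted p 0.828). For the interaction edgeR called 2 genes and DESeq2 1, no member among them. The distance of Else from Des+ gave 0 calls between labels (0%), with no member and 17 genes (2.8%) at an unadjusted p under 0.05, and edgeR and DESeq2 also called 0 genes. The distance from Marco+IBA+ gave 4 calls (0.659%) and no member, with 5 members and 78 genes (12.9%) at an unadjusted p under 0.05. Among them Zbtb20, Stbd1, C1ra and Ephx1 were each farther above Marco+IBA+ in the treated livers, by 0.33 to 0.43 (adjusted p 0.245 to 0.383). Median differences of the 68 were 0.05 from Des+ and 0.10 from Marco+IBA+, the same to 2 decimals as over all genes (0.05 and 0.10). The median difference of the members between treated and control livers was -0.14 in Des+ (15 of 68 above 0) and -0.19 in Marco+IBA+ (8 of 68), beside 0.03 (333 of 607) and -0.0038 (302 of 607) over all genes. Marco was at 22.9 and 24.5 in the treated livers and 7.46 and 11.9 in the control livers in Des+, and at 694 to 1043 against 179 to 242 in Marco+IBA+. The part of Marco levels in these differences was not tested.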

How the data were processed

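Digital spatial profiling (GeoMx, mouse whole transcriptome probes) was run on fixed liver sections of 4 mice. Per the labels and the study's methods, reads were converted with bcl2fastq 2.20.0.422 and made into counts with molecular identifiers removing duplicates, segments and probes were filtered, and the authors scaled each segment to its upper quartile (Q3); the labels name build mm10. The deposited table holds this Q3-normalised signal, with a Q3 of 26.1 in each of 159 segments and values that were whole multiples of 1 count (96513 of 96513, within a relative 1e-06), from which counts were recovered. It had no 0: the lowest value of a segment is often 1 count.

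Columns were assigned to segments by their names. Values of 1 type were averaged per liver (and per ROI class) and tested as log2(mean + 1) with limma 3.58.1 in R 4.3.3, Benjamini-Hochberg over 607 genes, threshold 0.05. The liver was the block in class comparisons, as both classes come from the same animal (deviations of same-liver classes correlated at 0.69 to 0.90). The members and lists were chosen with earlier results of these data known. Genes were named in full by rule: the 12 of highest smaller difference, those called, the 3 highest and 3 lowest between classes and between labels, and 3 on either side of the limit; other names were chosen after their values were seen. Alternatives were a pseudocount of 5 or none, a mean value of at least 20, means of logs, medians, re-centring, edgeR 4.0.16 and DESeq2 1.42.0 on recovered counts, no block, and leaving out a liver or the ROI whose library name gives no class. Fits were also run on simulated data, drawn with no differences between livers and with planted changes larger than those of the members between classes or labels. That run checks the code and not how the fits do with real livers. Depth limits Des+ and Marco-IBA+ most, and intervals cover counting error only. Promoters and gene positions are from RefSeq GRCm38.p6. For 2 of the 68 members single values are not reported here, though counts and medians include them.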

Additional observations from a re-analysis of the deposited data

Results flagged for a closer look

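The share of counts in the 68 genes in Des+ was far from the others in 1 of 4 livers: 26.2% in liver 4 against 20.8%, 21.2% and 21.6%. The gap to the nearest liver was 0.861 of the whole range, above Dixon's 95% critical value for 4 values. These Des+ values had entered the rule that chose the genes, so the critical value serves here as a flag and not as a test. The MarcoHi Des+ segments of liver 4 averaged 28.5% and its MarcoLo segments 21.6%. The Des+ counts of liver 4 had a median of 5111, against 2871, 3089 and 3759 in livers 1 to 3, and the stellate marker sum there was 684, the lowest of the 4 livers (746 to 881 in the others). Their part in the share was not tested. Without liver 4 the rule gave 70 genes, 66 of them among the 68. Chance alone would flag about 1 in 20 groups of values that no rule had used, and 1 of 26 was flagged here.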

How the results depend on the processing

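The number of members called between ROI classes in Else, 2 in the reported fit, was 11 with a pseudocount of 5, 19 of 66 tested among genes with a mean value of at least 20 (196 genes tested), 5 with means of logs, 6 with re-centring, 8 with edgeR, 7 with DESeq2, 0 with medians over segments, 0 without the liver as a block and 0 to 6 without 1 liver (0 without liver 1, 3 or 4, and 6 without liver 2). The count of all genes called, 10 (2 higher), was 35, 34, 25, 26 (10 higher), 30, 24, 5 and 0 in the same order, and 0 to 21 without 1 liver. The cause of these changes was not tested, and with the filter fewer genes were tested as well. Of the members called between classes, 3 of the 19 with the filter and 2 of the 8 with edgeR were lower in MarcoHi. All other members called were higher there. Between labels in Else DESeq2 called 33 members and 115 genes, where limma and edgeR called 0 and 0. For the distance from Des+ between classes DESeq2 called 3 members among 26 of the 607 genes. For the distance from Marco+IBA+ between labels a pseudocount of 5 gave 1 member among 14 of the 607 genes. The rule gave 8 genes with a difference of at least 1, 119 with re-centred segments and 36 where each of 4 livers had to pass. It gave 49 with a pseudocount of 5, all among the 68. With means of logs it gave 84, with medians over segments 72, and without 1 liver 62 to 70. The direction turned for G0s2 between labels without liver 2 (-0.39) and liver 3 (-0.11), with a range of -0.39 to 0.96 over livers left out, and for Lifr without liver 1 (-0.068), with a range of -0.068 to 0.42; the cause was not tested. Hsd11b1, Serping1, C2, Rarres2, Calr, Xbp1, Cp, C4b, Ephx1, Lifr and Stbd1 between classes, and Calr, Ppib, Ctsl, Pdia4, Fn1 and Ephx1 between labels, kept their direction in each alternative run. Counts in Des+ and Marco-IBA+ limit what can be seen of low genes there.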
